A study of Mus musculus with 12 samples.

Results

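The solute carriers described here are the mouse genes whose symbols begin with Slc16a, Slc17a or Slc22a, which include the liver's carriers of organic anions and of short monocarboxylates such as lactate. Of the 22180 genes that a probe set with 1 gene symbol measured, 46 were members, with 13 in the Slc16a family, 9 in Slc17a and 24 in Slc22a. The genes were chosen by symbol, and the probe set of each was selected on its level, as the one of highest mean over the 12 arrays, which decided between 2 probe sets for Slc16a5 (means of 7.09 and 6.54 on the log2 scale) and Slc16a9 (5.79 and 3.46). A further probe set that names Slc16a3 together with Csnk1d was not used. The members were not filtered on level, so all 46 entered every comparison. They were chosen with earlier results of these data known. Their shares beside those of all genes therefore describe the set and are not separate evidence. Liver RNA came from male C57BL6 mice that ate their diet freely for 12 weeks, from 6 to 18 weeks of age, and each of the 12 RNA samples was measured on 1 Affymetrix array. The low-fat diet held 10% and the high-fat diet 45% of its energy as fat, and each was given as it was (control) or with 0.5% (w/w) of MSX, a maple syrup extract rich in phenols. This gave 4 groups, controls and MSX mice on each diet, with 3 arrays in each that the labels call biological replicates. The labels do not say whether a sample came from 1 animal or from a pool.

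The Slc16a family holds the monocarboxylate transporters, which move lactate, pyruvate and ketone bodies together with a proton, and relatives that carry aromatic amino acids, creatine or other molecules. The Slc17a family joins the type I sodium phosphate transporters, which carry urate and other organic anions, with the lysosomal exporter sialin and the vesicular carriers that load glutamate or nucleotides. The Slc22a family holds the organic anion transporters (OATs), the organic cation transporters and the carriers of carnitine and ergothioneine. In liver such carriers take up drugs, urate, carnitine and fuel molecules from the blood or release them to it.

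Values are log2 signals as deposited, and a difference of 1 on that scale is a doubling. A probe set's level is not set against that of another, since probes differ in how strongly they bind. As a guide to which members gave a signal, 27 of the 46 lay above the array's own median of all probe sets on all 12 arrays, 10 lay above it on none and 9 on some. The summed log2 level of 8 hepatocyte markers lay between 15.92 and 15.99 in all 12 arrays. It was lowest in the high-fat controls, at 15.919 to 15.938, against 15.945 or more in the other groups. The markers' median deviation from their means over the 12 arrays was −0.056 to −0.022 in the high-fat controls. It was 0.011 to 0.046 in the low-fat controls and −0.026 to 0.034 in the MSX arrays. The array of high-fat control replicate 1 stood apart in markers of other liver cells. Its 8 stellate cell markers had a median deviation of 0.89 (log2) from their means over the 12 arrays, against −0.39 to 0.24 in the other arrays, and its 5 cholangiocyte markers one of 0.74, against −0.18 to 0.07. Its 6 lymphocyte markers had one of 0.36, against −0.19 to 0.09. For 8 Kupffer cell and macrophage markers the high-fat controls ranged from −0.68 in replicate 3 to 0.53 in replicate 1, and the other groups from −0.47 to 0.32. The values that rest most on replicate 1 are also given without it. In bulk tissue, fewer cells of a type and less RNA per cell cannot be told apart.

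**Figure D1:**
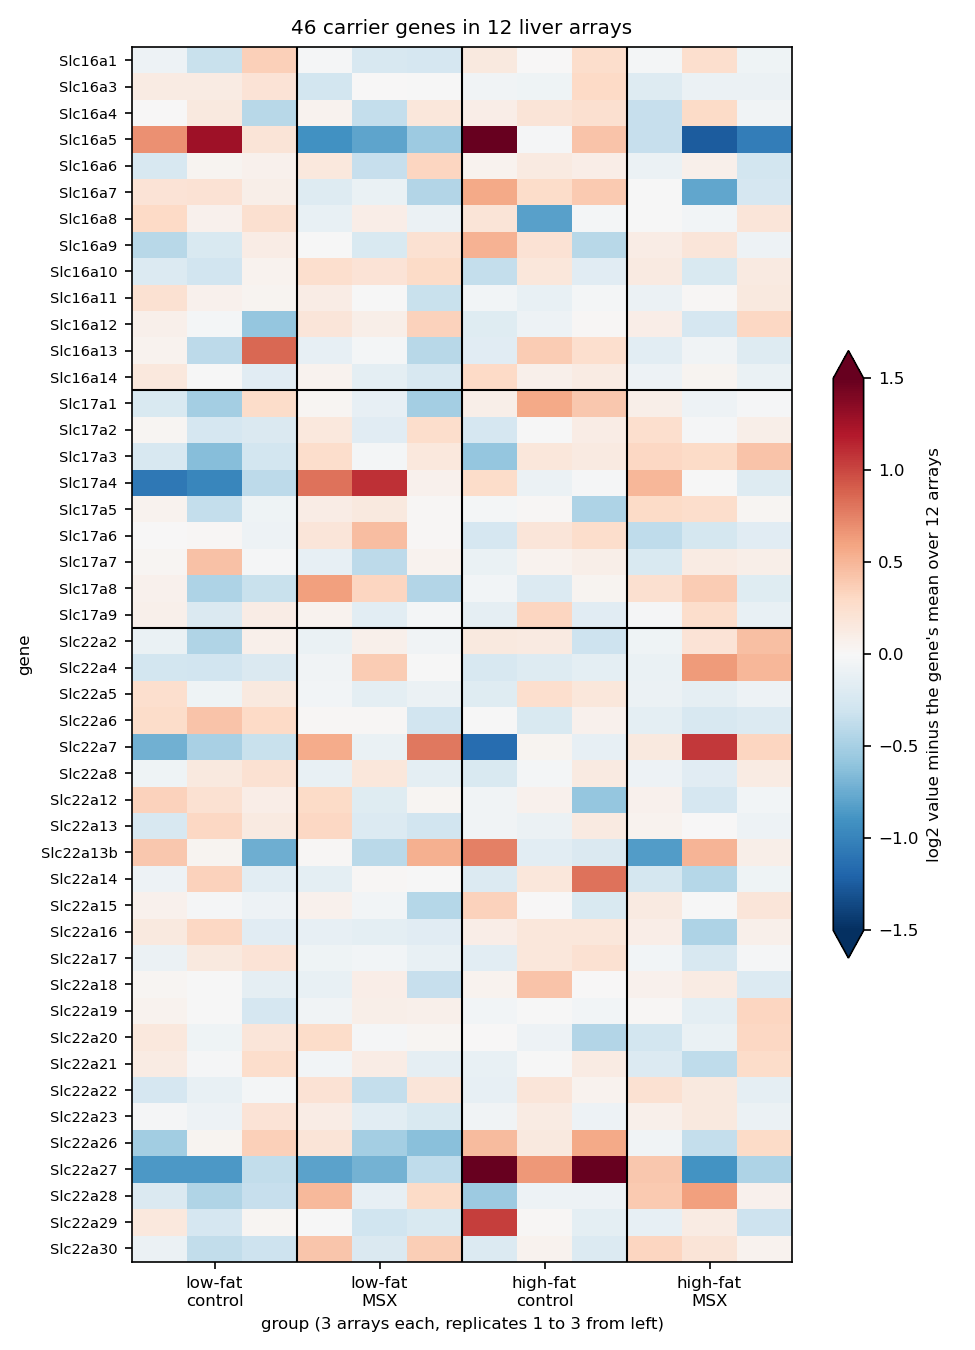
Log2 difference of each of the 46 members (rows, by family) from its own mean over the 12 arrays (columns, by group), shown in colours that end at 1.5 in either direction. Slc16a5, Slc22a27, Slc22a7 and Slc17a4 have the widest ranges over the arrays, from 2.16 to 3.55 on the log2 scale.

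The first question was what the extract did on the low-fat diet. Slc17a4, a sodium phosphate transporter and organic anion carrier also called NPT5, was the 1 member that rose there, and no member fell. Its log2 level was 6.84, 6.93 and 7.52 in the low-fat controls and 8.72, 9.01 and 7.98 in the low-fat MSX arrays. The groups did not overlap, but the third MSX array lay nearer to the controls than the other two. The means were 7.10 ± 0.37 and 8.57 ± 0.53 (SD, n = 3), a log2 difference of 1.47 (SE 0.26, 95% interval 0.91 to 2.03) or 2.77-fold (limma with Benjamini-Hochberg adjustment over all 22180 genes, adjusted p = 0.0492). Without low-fat MSX replicate 3 the difference was 1.77 (adjusted p = 0.0135), and leaving out any other array of both groups ended the call, with differences from 1.25 and adjusted p-values up to 0.231. The call was also lost under 5 of 10 other settings, with adjusted p-values between 0.0169 and 0.204 over the 10. Across all genes, 0.0631% were higher and 0.0947% lower past the same threshold.

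On the high-fat diet Slc17a4 had a log2 level of 8.18, 7.82 and 7.90 in the controls and 8.41, 7.90 and 7.72 with MSX. These groups overlapped, and the log2 difference was 0.04 (SE 0.26, limma adjusted p = 0.996). Averaged over both diets it was 0.76 (adjusted p = 0.133). Of the 12 fits that leave out 1 array, 1 passed on that average, without low-fat MSX replicate 3 (0.90, adjusted p = 0.0393), and the adjusted p-values reached 0.287. The low-fat controls were thus the lowest group, and the other 3 groups had means between 7.96 and 8.57. The test of the difference between both extract effects gave −1.43 (SE 0.37) with an unadjusted p of 0.00186, which did not pass the threshold over all genes (limma adjusted p = 0.753). In that test 0 of 22180 genes passed (0%), and 3 members had an unadjusted p under 0.05 (6.52%, against 5.09% of all genes).

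A second question was which carriers moved the same way with the extract on both diets. The comparisons on the low-fat and on the high-fat diet share no array. Slc17a3, Slc22a4, Slc22a7 and Slc22a28 were higher in every MSX array than in every control of the same diet, on both diets, and Slc16a3, Slc16a5 and Slc16a7 were lower in the same sense. These are 4 (8.7%) and 3 (6.52%) of the 46 members, beside 1.09% and 0.821% of all genes. None of these 7 passed the threshold in a single comparison, and the values below are given as they were measured. Over the members the extract's log2 differences had the same sign on both diets in 71.7%, with 15 above 0 on both and 18 below, and a Pearson correlation across genes of 0.59. Over all genes these were 55.0% and 0.21. They were 78.3% and 0.52 for the members and 55.6% and 0.21 for all genes without high-fat control replicate 1. Since the members were chosen with earlier results known, the shares in this paragraph are descriptions and not separate evidence.

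**Figure D2:**
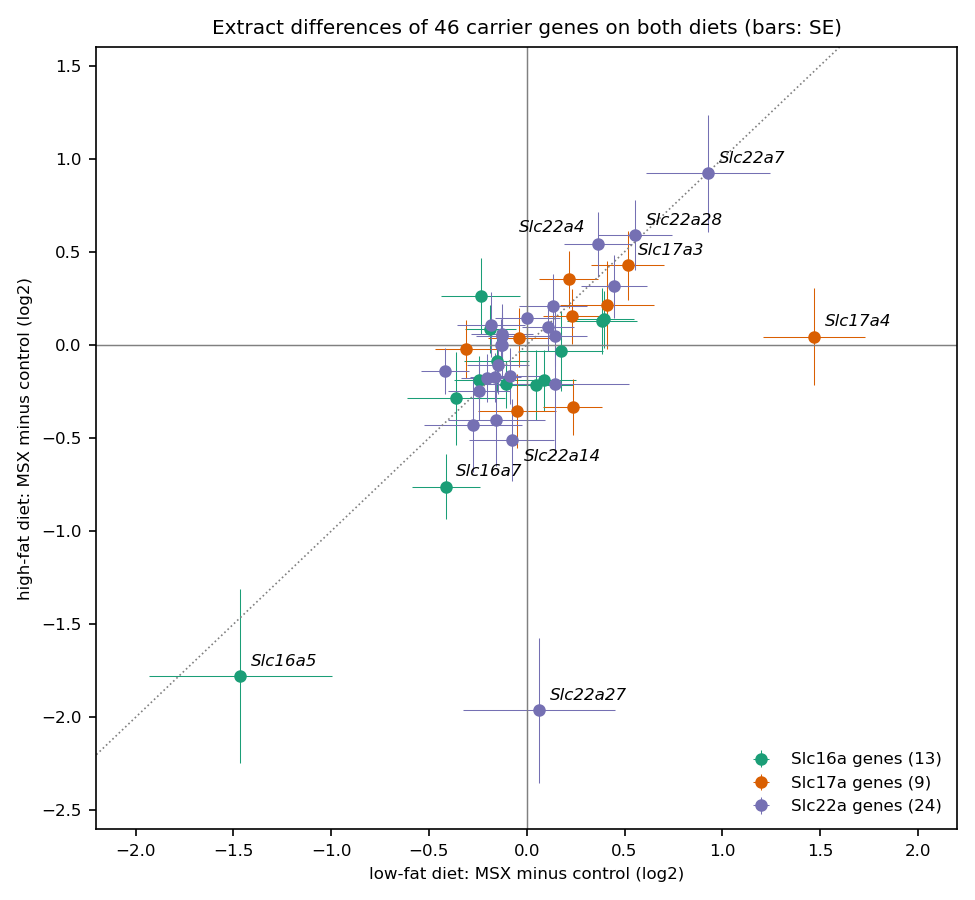
Log2 difference of MSX minus control on the low-fat diet (horizontal axis) and on the high-fat diet (vertical axis) for the 46 members, with bars of 1 SE and a dotted line of equal differences. Slc16a5 (−1.47 and −1.78) and Slc22a7 (0.93 and 0.92) lie near the line, while Slc17a4 (1.47 and 0.04) and Slc22a27 (0.06 and −1.96) lie off it.

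Among the organic anion transporters, Slc22a7 (OAT2) is a liver uptake carrier of small organic anions and nucleotides. Its log2 level was 6.98, 7.20 and 7.36 in the low-fat controls and 8.25, 7.59 and 8.48 with MSX. It was 6.55, 7.73 and 7.57 in the high-fat controls and 7.84, 8.76 and 8.01 with MSX. All 6 MSX arrays lay above the control arrays of their diet, and the lowest control was the high-fat replicate that stood apart. The log2 difference was 0.93 on the low-fat diet (SE 0.32, limma adjusted p = 0.445) and 0.92 on the high-fat diet (SE 0.32, adjusted p = 0.633), each near 1.9-fold. Averaged over both diets it was 0.92 (SE 0.22, adjusted p = 0.128). The high-fat difference was 0.56 (SE 0.28) and the average 0.74 (adjusted p = 0.217) when high-fat control replicate 1 was left out.

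Slc22a28 belongs to a rodent cluster of OAT-like genes on chromosome 19. Its log2 level was 9.14, 8.90 and 9.01 in the low-fat controls against 9.84, 9.24 and 9.64 with MSX, and 8.81, 9.28 and 9.29 in the high-fat controls against 9.75, 9.98 and 9.42 with MSX. The MSX arrays lay above the controls on each diet by 0.55 (SE 0.19) and 0.59 (SE 0.19) in mean log2 difference, and by 0.57 on average (SE 0.13, limma adjusted p = 0.115). The high-fat difference was 0.43 and the average 0.49 (adjusted p = 0.234) without high-fat control replicate 1. Slc22a30, from the same cluster, read 6.32, 6.05 and 6.10 in the low-fat controls and 6.84, 6.19 and 6.78 with MSX. Its high-fat arrays read 6.21, 6.46 and 6.21 without and 6.74, 6.61 and 6.47 with the extract. Its groups overlapped on the low-fat diet alone, and the average log2 difference was 0.38 (adjusted p = 0.279), or 0.36 without high-fat control replicate 1.

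Slc17a3 (NPT4) is a urate and organic anion exporter of kidney and liver and a neighbour of Slc17a4 on chromosome 13. Its log2 level was 8.59, 8.20 and 8.56 in the low-fat controls and 9.10, 8.80 and 8.99 with MSX, then 8.26, 9.0 and 8.97 in the high-fat controls and 9.14, 9.11 and 9.25 with MSX. The groups did not overlap on either diet, but 2 of the 3 high-fat controls lay as high as the low-fat MSX arrays. The log2 difference was 0.52 on the low-fat diet (SE 0.19) and 0.43 on the high-fat diet (SE 0.19), and 0.47 on average (limma adjusted p = 0.207). Without high-fat control replicate 1 the high-fat difference was 0.18 and the average 0.35 (adjusted p = 0.296), so that the high-fat value rests largely on that array. Slc22a4, the ergothioneine transporter, had a log2 level between 5.20 and 5.27 in the low-fat controls and of 5.44, 5.86 and 5.48 with MSX. In the high-fat arrays it lay between 5.24 and 5.34 without and at 5.39, 6.12 and 5.99 with the extract. All 6 control arrays lay within a narrow band below all 6 MSX arrays, and the average log2 difference was 0.45 (adjusted p = 0.194). Of the 12 fits that leave out 1 array, 1 passed, without high-fat MSX replicate 1 (0.56, adjusted p = 0.0393). The adjusted p-values reached 0.359 in the others, and without high-fat control replicate 1 the average was 0.44 (adjusted p = 0.344).

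Among the Slc16a members, Slc16a5 (MCT6) had the largest extract difference. Its log2 level was 7.77, 8.36 and 7.28 in the low-fat controls and 6.17, 6.30 and 6.54 with MSX, and 9.39, 7.06 and 7.52 in the high-fat controls and 6.74, 5.84 and 6.05 with MSX. The highest value was again that of high-fat control replicate 1, and all 6 MSX arrays lay below all 6 controls. The log2 difference was −1.47 on the low-fat diet (SE 0.47, limma adjusted p = 0.417) and −1.78 on the high-fat diet (SE 0.47, adjusted p = 0.426). On average it was −1.62 (SE 0.33) with an adjusted p of 0.0635. Without high-fat control replicate 1 the high-fat difference was −1.08 (SE 0.31) and the average −1.27 (adjusted p = 0.0262), and without high-fat control replicate 2 the average was −1.85 (adjusted p = 0.0293). These were the 2 of 12 fits leaving out 1 array in which the average passed, and the adjusted p-values of the others reached 0.169. The gene's other probe set, of lower mean level, gave log2 differences of −1.25 and −1.65 and an average of −1.45 (SE 0.20), which did pass the threshold (adjusted p = 0.00623).

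Slc16a7 (MCT2), a high-affinity carrier of pyruvate, lactate and ketone bodies, had a log2 level of 9.81, 9.82 and 9.69 in the low-fat controls and 9.41, 9.50 and 9.16 with MSX. On the high-fat diet it was 10.17, 9.88 and 10.00 without and 9.60, 8.82 and 9.35 with the extract. Every MSX array lay below every control array of either diet. The log2 difference was −0.41 on the low-fat diet (SE 0.17, limma adjusted p = 0.578), −0.76 on the high-fat diet (SE 0.17, adjusted p = 0.272) and −0.59 on average (SE 0.12, adjusted p = 0.0744). Of the 12 fits that leave out 1 array, 1 passed on that average, without high-fat MSX replicate 1 (−0.67, adjusted p = 0.0408). The highest adjusted p was 0.180, without high-fat control replicate 1, where the average was −0.55 and the high-fat difference −0.68. Slc16a3 (MCT4), the lactate exporter of glycolytic cells, lay near the array median, from 4.78 to 5.14 in the controls and from 4.57 to 4.84 with MSX. Its average log2 difference was −0.22 (adjusted p = 0.458). Slc16a1 (MCT1), the broadly expressed lactate carrier, ranged from 8.22 to 8.91 over the 12 arrays, with overlapping groups and log2 differences of −0.15 and −0.09.

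**Figure D3:**
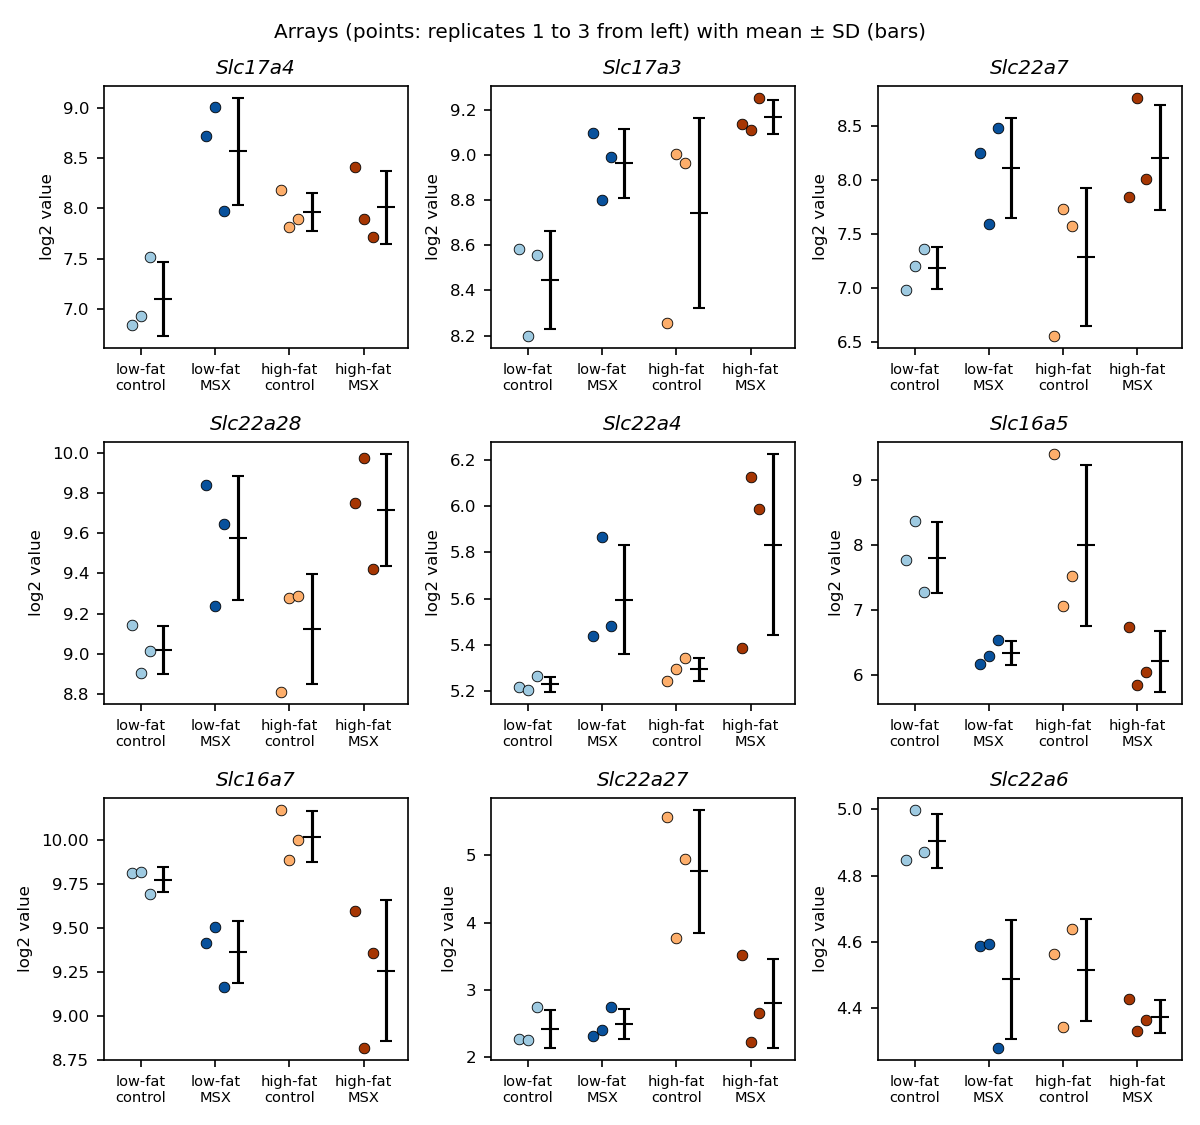
Log2 level of 9 members in the 4 groups, with 1 point per array, the mean with its SD (n = 3) and an axis of its own for each gene. The MSX points lie above the control points of the same diet for Slc17a3, Slc22a7, Slc22a28 and Slc22a4 and below them for Slc16a5 and Slc16a7, Slc17a4 is lowest in the low-fat controls, and Slc22a27 is highest in the high-fat controls.

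On the high-fat diet 0 members passed the threshold with the extract in the limma fit, where 0.0361% of all genes did. An unadjusted p under 0.05 was found for 10 members (21.7%, against 6.99% of all genes), and for 9 on the low-fat diet (19.6%, against 8.05%). Averaged over both diets 0 members passed, beside 0.261% of all genes, and 14 had an unadjusted p under 0.05 (30.4%, against 9.66%). When high-fat control replicate 1 was left out, 12 members had an unadjusted p under 0.05 on the high-fat diet (26.1%, against 5.77% of all genes) and 16 on average (34.8%, against 8.93%). Array groups did not overlap for 7 higher and 4 lower members on the low-fat diet (7.13% and 6.73% of all genes) and for 6 higher and 7 lower on the high-fat diet (6.7% and 5.51%). The median log2 difference of the members was −0.06 on the low-fat diet and −0.01 on the high-fat diet, beside 0.00 and 0.01 over all genes. A difference of more than 0.5 on the log2 scale was found for 5 members (10.9%) on the low-fat and 7 (15.2%) on the high-fat diet, beside 2.62% and 2.58% of all genes. The within-group SD of the members had a median of 0.217, against 0.190 for all genes.

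The third question was the effect of the high-fat diet itself. Slc22a27, an OAT-like gene of the chromosome 19 cluster, had a log2 level of 2.26, 2.26 and 2.75 in the low-fat controls and of 5.57, 3.77 and 4.95 in the high-fat controls. All 3 high-fat controls lay above all other arrays, and replicates 1 and 3 were the only arrays in which the gene exceeded the array median. The log2 difference was 2.34 (SE 0.39, 95% interval 1.5 to 3.18) and missed the threshold (limma adjusted p = 0.0826). No fold is given, since the deposited values do not tell whether the probe set was above background in the low-fat controls. Without high-fat control replicate 2, the lowest of the group, it was 2.83 and passed (adjusted p = 0.0067), and without replicate 1 it was 1.93 (adjusted p = 0.270).

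With MSX, Slc22a27 read 2.32, 2.41 and 2.74 on the low-fat diet and 3.52, 2.22 and 2.65 on the high-fat diet. High-fat MSX replicate 1 lay a little below the lowest high-fat control, and the other arrays of the group lay near the low-fat arrays. The log2 difference of MSX on the high-fat diet was −1.96 (SE 0.39, limma adjusted p = 0.153). It was −2.46 without high-fat control replicate 2 (adjusted p = 0.0295) and −1.56 without replicate 1 (adjusted p = 0.445). Both comparisons share the 3 high-fat controls, so that they are not separate evidence. The difference between the extract effects of both diets was −2.03 (SE 0.55, adjusted p = 0.802), or −1.62 without high-fat control replicate 1. The stellate markers' summed log2 level lay between 11.22 and 11.95 in the high-fat controls and between 10.87 and 11.28 in the high-fat MSX arrays, and their part in the result was not tested.

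Without extract, 0 members passed the threshold between the diets (limma, 0.018% of all genes), and 5 had an unadjusted p under 0.05 (10.9%, against 6.78%). Groups did not overlap for 3 higher members, Slc16a7, Slc17a4 and Slc22a27 (5.29% of all genes), and for 3 lower ones, Slc16a11, Slc22a6 and Slc22a12 (6.1%). Slc17a4 had a log2 difference of 0.87 (SE 0.26, adjusted p = 0.508), from the same low-fat controls that enter its extract comparison. Slc17a1 (NPT1), another urate and anion carrier, had 0.51 (adjusted p = 0.663), with levels of 6.15, 5.88 and 6.66 in the low-fat and 6.47, 6.95 and 6.79 in the high-fat controls, which overlapped. Slc22a6 (OAT1), the main uptake carrier for organic anions of the kidney, had −0.39 (adjusted p = 0.552), and read 4.85, 5.0 and 4.87 in the low-fat controls and between 4.28 and 4.64 in the other 9 arrays. Its low-fat controls were thus the only 3 arrays in which it exceeded the array median. Slc22a12 (URAT1), the renal urate reabsorber, had −0.42 (adjusted p = 0.691), and Slc16a8, a monocarboxylate carrier best known from retina, also −0.42 (adjusted p = 0.749), the lowest differences of all members there. With high-fat control replicate 1 left out, these diet differences were 0.76 for Slc17a4, 0.64 for Slc17a1, −0.41 for Slc22a6, −0.48 for Slc22a12 and −0.62 for Slc16a8, with adjusted p-values of 0.650 or more. Slc17a3 had a diet difference of 0.30 with all arrays and of 0.54 without that one (limma adjusted p = 0.574 without it). With extract in both diets, 0 members passed (0% of all genes) and 1 had an unadjusted p under 0.05 (2.17%, against 4.56%). Slc17a3 did not overlap upward there (4.68% of all genes), and Slc16a10 and Slc17a6 downward (4.76%). Averaged over extract, 0 members passed (0.0225% of all genes) and 4 had an unadjusted p under 0.05 (8.7%, against 5.94%), with Slc22a27 at 1.32 (adjusted p = 0.304).

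The remaining Slc16a members had log2 differences under 0.40 in size with the extract. Slc16a10 (TAT1), which carries aromatic amino acids, read 9.02, 8.93 and 9.27 in the low-fat controls and 9.47, 9.42 and 9.51 with MSX, without overlap and with a log2 difference of 0.39 (limma adjusted p = 0.534). Its high-fat groups overlapped, with a difference of 0.14. Slc16a12, a creatine carrier, had 0.38 on the low-fat (adjusted p = 0.624) and 0.13 on the high-fat diet, over a range of 8.37 to 9.29. Slc16a13 had −0.36 and −0.29, and Slc16a6, Slc16a9 and Slc16a11 lay within 0.20 of 0 on both diets. The signs of Slc16a9 turned between its probe sets, from 0.18 and −0.03 in the one used to −0.12 and 0.04 in the other. Slc16a8 had −0.24 on the low-fat and 0.26 on the high-fat diet. Slc16a4 and Slc16a14 lay below the median on all arrays.

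Among the other Slc17a members, Slc17a2 was measured between 10.11 and 10.63 on all 12 arrays and had extract differences of 0.23 and 0.15 on the log2 scale. Slc17a5 (sialin), the lysosomal exporter of sialic acid, read 8.71, 8.76 and 8.27 in the high-fat controls and 9.03, 9.0 and 8.77 with MSX, without overlap and with a log2 difference of 0.35 (limma adjusted p = 0.692), or 0.42 without high-fat control replicate 1. Slc17a8, known as a vesicular glutamate carrier of neurons, gave a signal above the array median on all 12 arrays, from 6.77 to 7.86, with extract differences of 0.41 and 0.21. Its relatives Slc17a6 and Slc17a7, of the same function, lay below the median on all arrays. Slc17a9, the vesicular nucleotide carrier, ranged from 5.92 to 6.45 and differed by −0.04 and 0.04.

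Of the Slc22a cation and carnitine carriers, Slc22a5 (OCTN2), the main carnitine importer, read 8.24, 7.92 and 8.13 in the low-fat controls and 7.94, 7.84 and 7.89 with MSX. Its high-fat arrays read 7.80, 8.23 and 8.16 without and 7.90, 7.85 and 7.91 with the extract. Values were tight with MSX and the groups overlapped on both diets, with log2 differences of −0.20 and −0.18. Slc22a23 and Slc22a18, both well above the array median, ranged from 9.45 to 9.88 and from 8.14 to 8.91, with extract differences no larger than 0.17 in size. Slc22a2 (OCT2) and Slc22a8 (OAT3), carriers best known from kidney, lay near the array median, with overlapping groups and differences of at most 0.21 in size. Slc22a13b, listed as a transcribed pseudogene in the RefSeq table, had no level above the array median.

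Several members are neighbours on a chromosome, and 14 pairs of members follow each other directly in the order of RefSeq's protein-coding genes, with other kinds of gene passed over. Slc17a2, Slc17a3, Slc17a1 and Slc17a4 form a run on chromosome 13. With MSX on the low-fat diet their log2 differences were 0.23, 0.52, −0.05 and 1.47 in that order, and on the high-fat diet 0.15, 0.43, −0.36 and 0.04. Neighbours in the run therefore gave differing values, with Slc17a1 the only one of the 4 below 0 on both diets. On chromosome 19, Slc22a19, Slc22a26, Slc22a27, Slc22a28, Slc22a29, Slc22a30, Slc22a8 and Slc22a6 form a run. On the high-fat diet Slc22a27 had −1.96 and its neighbour Slc22a28 had 0.59, the lowest of all members there and the highest but for Slc22a7. Slc22a29 read 3.09 in high-fat control replicate 1 and between 1.74 and 2.21 elsewhere.

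**Figure D4:**
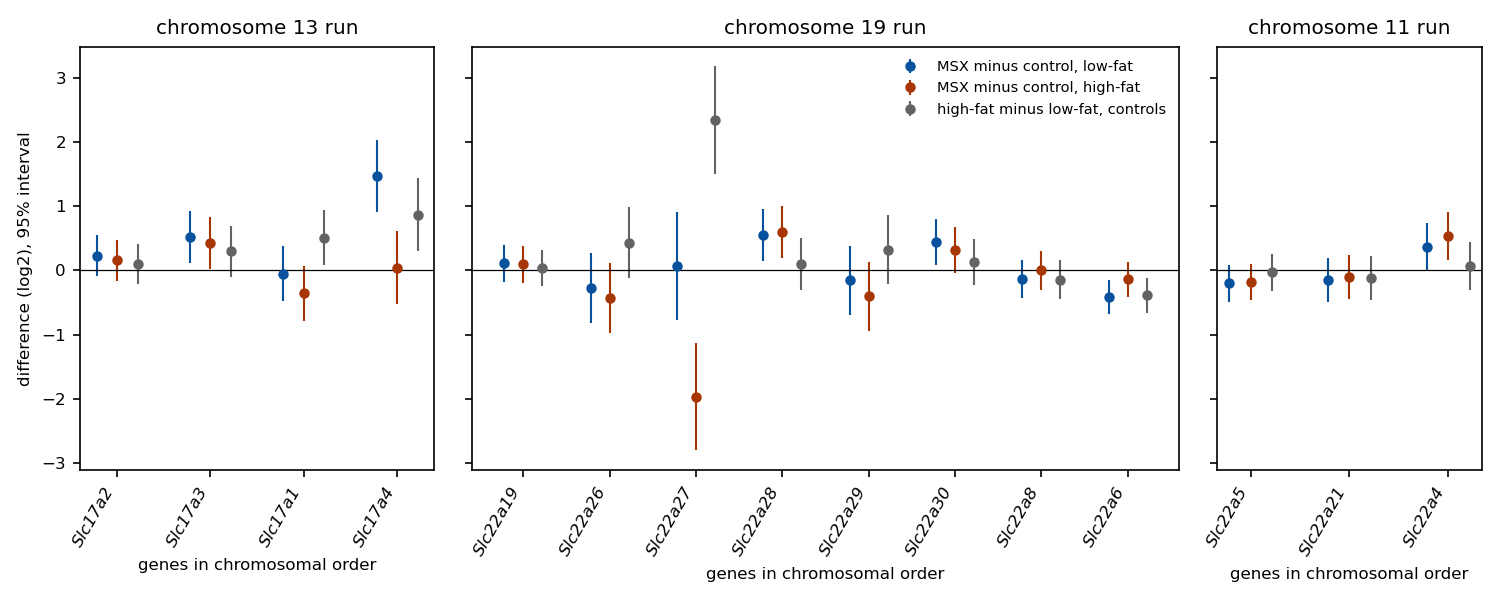
Log2 difference of MSX minus control on each diet (blue and red) and of high-fat minus low-fat controls (grey), with 95% intervals, for the members of 3 runs of neighbouring genes on chromosomes 13, 19 and 11, in the order of RefSeq's protein-coding genes. Slc17a4 on the low-fat diet (1.47) and Slc22a27 on the high-fat diet (−1.96) stand away from the genes beside them.

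Promoters of the chromosome 13 genes are shown because the genes beside each other gave differing values. They come from RefSeq's annotation of GRCm38.p6 and span 250 bases before to 50 after a start site. In the RefSeq gene table Slc17a3 begins at 23836922 and Slc17a1 at 23867624, both before their windows. The start sites used for these 2 genes therefore lie inside the genes. The table holds 41 promoters of 37 members, and Slc17a4, Slc22a7, Slc16a5 and Slc16a7 are not among them. Capitals mark TTCNNNGAA, the spacing of STAT factor sites, which reads alike on both strands. The windows are chr13:23806743-23807042 (Slc17a2), chr13:23839184-23839483 (Slc17a3), chr13:23870023-23870322 (Slc17a1, 1 of its 2 promoters), all on the plus strand.
Slc17a2: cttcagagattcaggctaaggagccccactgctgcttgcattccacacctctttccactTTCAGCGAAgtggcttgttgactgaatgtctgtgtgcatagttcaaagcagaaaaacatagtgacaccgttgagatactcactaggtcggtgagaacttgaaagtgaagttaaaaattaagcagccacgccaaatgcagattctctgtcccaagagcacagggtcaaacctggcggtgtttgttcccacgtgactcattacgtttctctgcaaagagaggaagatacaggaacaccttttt
Slc17a3: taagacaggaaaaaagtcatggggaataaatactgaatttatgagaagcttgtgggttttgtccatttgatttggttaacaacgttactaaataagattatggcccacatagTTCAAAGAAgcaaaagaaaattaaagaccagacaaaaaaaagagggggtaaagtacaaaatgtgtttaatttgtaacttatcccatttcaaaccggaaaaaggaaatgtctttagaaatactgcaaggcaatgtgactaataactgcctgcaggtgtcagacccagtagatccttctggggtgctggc
Slc17a1: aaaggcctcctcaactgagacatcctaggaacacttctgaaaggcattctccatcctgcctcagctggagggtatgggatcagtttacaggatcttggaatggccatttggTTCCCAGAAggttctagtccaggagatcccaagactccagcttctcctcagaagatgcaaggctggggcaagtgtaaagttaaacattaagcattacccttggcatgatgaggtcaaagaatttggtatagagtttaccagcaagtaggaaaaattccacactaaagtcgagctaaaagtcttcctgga

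Each of the 3 shown holds 1 match, which begins at −191, −138 and −139 from the start site of its window. For Slc17a1 the promoter with the match was the one printed, and its other promoter holds none. The motif was found in 7 of 41 member promoters (17.1%), against 8.3% of the 32851 promoters in the table. Of the other motifs searched on both strands, CACGTG, the E-box of clock and MYC factors, was in 12.2% (7.15% of all promoters). GTTAAT, a core of HNF1 sites, was in 9.76% (7.1%), TATAAA in 7.32% (13.62%) and CAAAGTCCA, a form of the HNF4 site, in 0.0% (0.47%). A match is a description of the letters, and binding was not measured. When aligned in pairs, the Slc17a1, Slc17a2 and Slc17a3 promoters matched at 58.0% to 60.7% of their 300 bases.

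On chromosome 19 the promoters of Slc22a28 and Slc22a30, whose extract differences were both above 0 on both diets, are shown beside that of Slc22a27. The windows are chr19:7965978-7966277 (Slc22a27), chr19:8131933-8132232 (Slc22a28), chr19:8405056-8405355 (Slc22a30), all on the minus strand. Capitals mark the 12 bases in each of Slc22a28 and Slc22a30 that differ from or are missing in the other when both are aligned.
Slc22a27: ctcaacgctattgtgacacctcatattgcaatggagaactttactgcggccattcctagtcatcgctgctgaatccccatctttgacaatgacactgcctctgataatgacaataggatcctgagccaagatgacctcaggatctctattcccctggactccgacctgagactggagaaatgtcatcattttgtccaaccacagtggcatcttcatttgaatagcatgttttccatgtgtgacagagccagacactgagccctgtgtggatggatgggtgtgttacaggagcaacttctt
Slc22a28: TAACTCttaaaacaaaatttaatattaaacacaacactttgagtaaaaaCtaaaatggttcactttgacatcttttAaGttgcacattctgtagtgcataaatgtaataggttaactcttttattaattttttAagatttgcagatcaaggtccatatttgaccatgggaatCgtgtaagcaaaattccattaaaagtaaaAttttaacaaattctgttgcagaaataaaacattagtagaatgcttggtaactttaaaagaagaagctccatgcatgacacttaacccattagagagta
Slc22a30: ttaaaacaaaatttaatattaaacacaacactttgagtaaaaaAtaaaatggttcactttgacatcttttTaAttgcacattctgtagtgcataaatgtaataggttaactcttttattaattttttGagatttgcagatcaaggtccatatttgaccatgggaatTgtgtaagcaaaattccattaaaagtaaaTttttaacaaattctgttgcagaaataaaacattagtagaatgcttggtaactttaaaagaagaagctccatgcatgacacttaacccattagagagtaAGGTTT

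The Slc22a28 and Slc22a30 promoters matched at 96.0% of their 300 bases, and at 98.0% of the 294 positions that align without a gap. That of Slc22a29 matched them at 75.0% and 74.7% of 300 bases. The Slc22a27 promoter matched the other 7 of the run at 56.3% to 62.0%, and it holds no TTCNNNGAA. Only promoters were aligned here, and transcripts and probes were not compared. Whether Slc22a28 and Slc22a30 share probe signal was therefore not tested, and their values may not be separate measurements.

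Other genes of the same pathways were read in the same fit. Of 18 measured organic anion and bile acid carriers outside the 3 families, 1 rose with MSX averaged over both diets and 0 fell, and 5 were higher and 3 lower at an unadjusted p under 0.05, beside 0.261% and 9.66% of all genes. That gene was Abcb11, the bile salt export pump, with a log2 difference of 0.53 (SE 0.10, limma adjusted p = 0.0393), and 0.49 without high-fat control replicate 1, which ended the call (adjusted p = 0.104). Slco1a1, a hepatocyte uptake carrier of organic anions, had 0.62 (adjusted p = 0.0543), and the basolateral exporter Abcc3 had −0.67 (adjusted p = 0.165). Of 9 genes of lactate and pyruvate use, Pdk4, which restrains the entry of pyruvate into oxidation, fell by 1.20 (SE 0.17, adjusted p = 0.00925) on that average, and the other 8 did not pass. Of 9 carnitine genes 0 passed on that average in the limma fit, and 1 was higher and 3 lower at an unadjusted p under 0.05. The lowest was Crat, carnitine acetyltransferase, at −0.51 (adjusted p = 0.0620). Of 7 genes of thyroid hormone handling 0 passed on the average, and 4 were higher at an unadjusted p under 0.05. Thrsp, a hormone-responsive gene of lipogenesis, had 1.01 on average (adjusted p = 0.117), rose by 1.92 on the low-fat diet (adjusted p = 0.0492) and had 0.10 on the high-fat diet (adjusted p = 0.988), and the test of that difference between diets gave −1.82 (adjusted p = 0.753). The lists for urate held 7 genes, creatine 4, carrier partners 3 and regulators of transporters 11. In these lists 0 genes passed with MSX on either diet or on average. At an unadjusted p under 0.05 on average the counts were 2, 0, 0 and 3, beside 9.66% of all genes. The 2 were Slc2a9 (0.26) and Gda (−0.27), and the 3 were Nr0b2 (0.60), Nr1i3 (−0.43) and Ppargc1a (−0.41).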

How the data were processed

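Liver RNA of 4 groups of 3 samples was measured on Affymetrix arrays. The authors deposited log2 values per probe set. Per the submitters' processing notes they used the Transcriptome Analysis Console, and how it normalized and summarized is not given in the sources used here. Array medians lay between 4.68 and 4.75, and the values were used as deposited. Of 41345 probe sets, 23521 had 1 gene symbol in the platform annotation, 1814 several, and 16010 were not listed. The probe set of highest mean over the 12 arrays stood for each of 22180 genes, and no filter on level was applied. All 46 members matched the RefSeq gene table, with 0 symbols changed.

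Group differences came from limma 3.58.1 (R 4.3.3), with 4 group means over 12 arrays (8 residual and 5.18 prior degrees of freedom), 7 comparisons, two-sided, with Benjamini-Hochberg adjustment over all 22180 genes in each comparison and a threshold of 0.05. A count "at an unadjusted p under 0.05" uses the same fit. Groups "do not overlap" where every array of one lies above every array of the other. The procedure was tested on simulated data. Precision is limited by the number of arrays: 3 against 3 cannot reach an exact permutation p under 0.1.

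The members and the gene lists were chosen with earlier results of these data known. Named genes were the members past the threshold, the 8 of lowest p in each pairwise comparison, a fixed panel of liver carriers, and from each list the genes past the threshold and up to 3 others, of which a part is printed. Other settings were another rule for the probe set, between-array scaling, a filter on dim genes, other limma options, the replicate number as a block and leaving out each array.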

Additional observations from a re-analysis of the deposited data

How the results depend on the processing

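Alternatives were run for 56 pairs of a member and a comparison, over 22 settings, 12 of which leave out 1 array. Each pair was run in the settings that apply to it, and the difference kept its sign in all of these fits. Slc16a9, which is not among those pairs, changed sign with its other probe set. On the low-fat diet the count of members past the threshold, 1 (Slc17a4), was 0 with the mean of a gene's probe sets (Slc17a4 adjusted p = 0.0503), the probe set of largest variance (0.0531), quantile scaling (0.0565), only the groups compared (0.204) and the replicate number as a block (0.104). It ran from 0 to 1 with an array left out. On the high-fat diet and for the diet without extract the counts with an array left out ran from 0 to 1, for the average extract effect from 0 to 2 and for the average diet effect from 0 to 1. Without high-fat control replicate 2, Slc22a27 had an average diet effect of 1.57 (adjusted p = 0.0481) and an average extract effect of −1.20 (adjusted p = 0.0471). The count for the average extract effect, 0 as reported, was 1 with the mean of probe sets (Slc16a5, adjusted p = 0.0192), 1 with a gene's other probe set (Slc16a5), 1 with array weights (Slc17a4, 0.0483), 2 without dim genes (Slc16a5, 0.0344, and Slc16a7, 0.0352) and 2 with limma's trend and robust options (Slc16a7, 0.0206, and Slc22a28, 0.0459).

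The median of the members on the high-fat diet was 0.0453 without dim genes, which left 30 of 46 members and 12866 genes. With an array left out, the median ran from −0.09 to −0.03 for MSX on the low-fat diet, from −0.05 to −0.03 on the high-fat diet, from 0.0505 to 0.10 for diet without extract, from 0.0011 to 0.0813 for diet with extract, from −0.0599 to 0.00803 for the interaction, from −0.09 to −0.02 for the average extract effect and from 0.02 to 0.08 for the average diet effect.

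The labels do not say whether the replicate numbers pair the samples. Residuals of same-numbered arrays correlated between −0.13 and 0.11 over 18 pairs, with 2 over 0.1. Those of arrays with other numbers correlated between −0.09 and 0.16, and 5 of 12 arrays correlated best with their own number. Residuals from means of 3 arrays are constrained, so these values do not settle whether samples were paired. Signal over background was not among the values used, so whether members under the array median were detected cannot be told.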

Other observations

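The members taken alone separated the arrays by extract, but they were chosen with earlier results of these data known. The split therefore describes this set and is not separate evidence of an extract effect. In a principal component analysis of the 46 members, each centred on its mean, 45.2% of the variance lay on the first component and 18.5% on the second. On the first component the 6 control arrays lay between −3.74 and −0.40 and the 6 MSX arrays between 0.40 and 2.12. Slc16a5 made up 36.5% of that component, Slc22a27 28.3% and Slc22a7 10.8%, so that few genes carry it. Without high-fat control replicate 1 the component held 38.0%, the controls lay between −2.02 and −0.57 and the MSX arrays between 0.44 and 1.99, and the shares of these genes were 31.6%, 5.46% and 12.1%.

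The diet effects without and with the extract, which share no array, had the same sign in 63.0% of the members, with a Pearson correlation across genes of 0.15. Over all genes these were 50.9% and 0.05. Both are descriptions across genes, which are not independent replicates. Slc10a2, a bile acid carrier of ileum and bile duct cells, had a log2 difference of 1.42 between the diets without extract (limma adjusted p = 0.369). It was 1.85 (adjusted p = 0.0726) without high-fat control replicate 1, the array with raised cholangiocyte markers, and 0.018% of all genes passed in the comparison of all arrays.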
